A study of Mus musculus with 8 samples.

Results

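The SST cluster is a group of somatostatin-expressing sensory neurons of the mouse dorsal root ganglion, taken here as the rows that the authors' deposited table of cluster markers gives under that name. It compares SST cells with all other cells for 2383 of the 9229 genes that occur in the table in any of its 20 clusters. By an adjusted p under 0.05 in that table, 1154 genes were higher in SST, 991 were lower and 238 passed neither way. "Higher" and "lower" always have this meaning here. The clusters had been made from the same expression values and the p-values treat cells as units, so these calls describe the cluster and test nothing. The remaining 6846 genes were not given for SST, which can mean a level close to that of other cells or a transcript too rare for the table.

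The cells came from ganglia of C57BL/6 mice aged 21 to 30 days, with the ganglia of 4 mice pooled for a sample. Both groups of the study, NMP-positive and NMP-negative, received the same labelling: 30 min with an antibody to proteasome subunit β5 on living cells, then 40 min with a fluorescent secondary antibody, before sorting for or against the label. NMP stands for the neuronal membrane proteasome, a proteasome exposed at the cell surface. Each group has 4 samples that, by their descriptions, are sequencing lanes of 1 library, and no column of the table separates the groups, so SST cells could not be compared between NMP-positive and NMP-negative cells. No sex, number of cells or depth per cell was given in the sources used here, and no interval was attached to a detection share.

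Neurons of this kind are unmyelinated fibres that carry itch from the skin. Immune cells release interleukin 31, leukotrienes and serotonin, which act on receptors on their endings, and the fibres answer by releasing the peptide made from Nppb onto itch neurons of the spinal cord. Interleukin 31 binds a receptor of 2 chains, made from Il31ra and Osmr, which signals through the kinase made from Jak1. Somatostatin, made from Sst, acts on inhibitory receptors of spinal interneurons.

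The name was checked against the 4 markers Sst, Nppb, Il31ra and Cysltr2, and each was higher in SST. In the authors' deposited table Cysltr2, the receptor gene for cysteinyl leukotrienes, was found in 96.1% of SST cells against 4.0% of the rest, and the other markers in 97.8 to 99.6% of SST cells. From the detection shares of all clusters the SST cluster was estimated to hold 5.86% of all cells. This weight makes it possible to say where the cells with a given transcript lay. It counts sorted cells, so neither it nor the shares built on it are proportions of the intact ganglion.

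**Figure D1:**
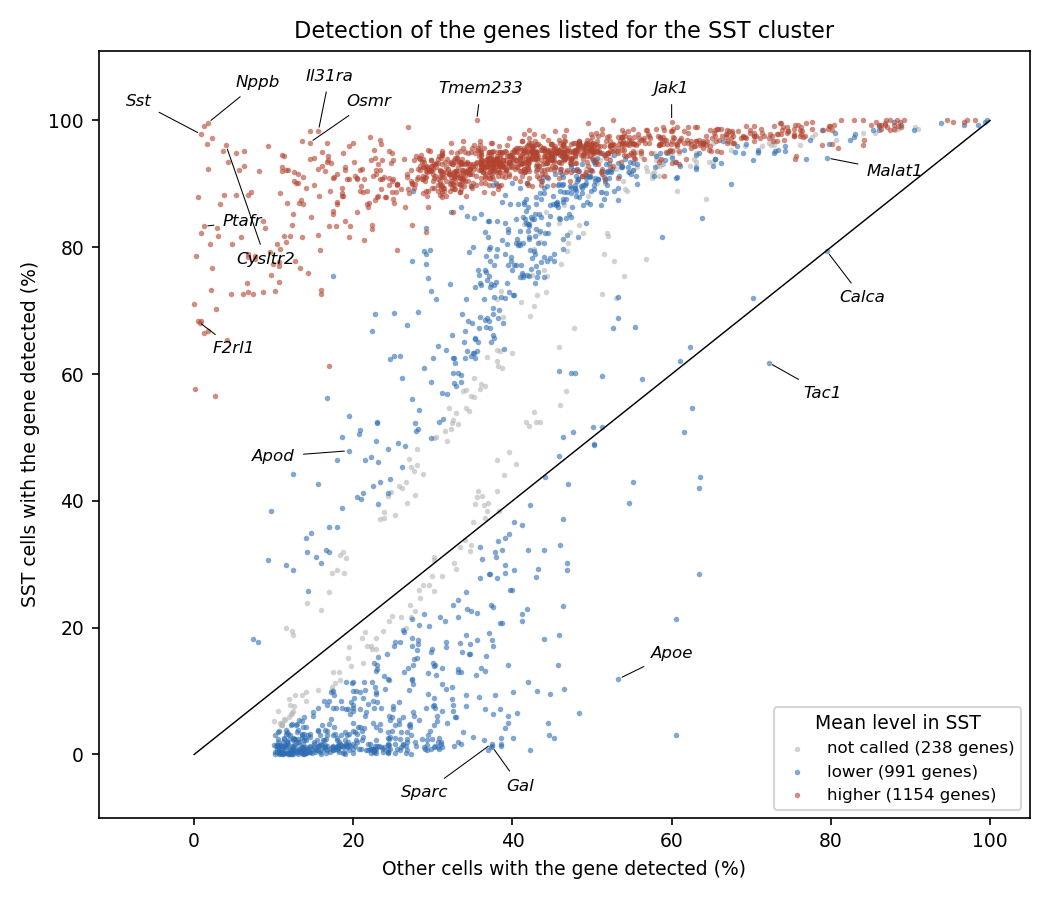
Share of SST cells (vertical axis, %) against share of all other cells (horizontal axis, %) in which each of the 2383 genes listed for SST was detected. Each point is a gene, coloured by the direction of its mean level, and the line marks equal shares. The 1154 higher genes lie in a band near the top, while the lower genes lie on both sides of the line.

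Most of the higher genes were found in nearly every SST cell. The authors' deposited table had 994 of the 1154 higher genes (86.1%) in at least 90% of SST cells, and the median share was 93.9% of SST cells against 41.05% of other cells. The plot of detection in SST against other cells shows them as a band along the top. Few of them were rare elsewhere: 15 were in at least 90% of SST cells and under 10% of other cells, and 301 were in more than 50% of other cells. Fold changes were mostly modest, with a median log2 fold change of 0.44 for the higher and -0.46 for the lower genes. Of the genes in the table, 12.5% were higher and 10.7% lower in SST. Counts of list members below are to be read against these shares. By 1 or more on the log2 scale, 1.31% (121 genes) were higher and 1.69% (156 genes) lower.

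Level and detection did not always point the same way among the lower genes. None of the 1154 higher genes was found in a smaller share of SST cells than of other cells, but 451 of the 991 lower genes (45.5%) were found in a larger share. Examples from the authors' deposited table are Nefl, the light neurofilament gene (-1.89 on the log2 scale, 95.4% of SST cells against 70.8%), and Egr1, an immediate early transcription factor (-1.44, 91.3% against 57.8%). Such a gene had a lower mean in SST although more SST cells contained it. The other cells include 3 clusters named Low.UMI, for few transcript molecules per cell, which held 28.6% of all cells, and 7 clusters named Unknown with 30.7%. The part that depth played in the detection shares was not tested.

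The 25 leading genes are those of largest log2 fold change with a detection difference of at least 20 percentage points. They held all 9 genes of the SST itch neuron list. That list includes the naming markers and was chosen with earlier results of these data known, so the overlap tests nothing. Described below by role are Nppb, Sst and Nts among the peptides, Il31ra, Osmr and Jak1 of the interleukin 31 pathway, and the receptor genes Htr1f, Cysltr2 and Npy2r. Adk, which codes for the enzyme that phosphorylates adenosine, stood between them at 3.09 on the log2 scale, found in 100% of SST cells against 52.6% of the rest in the authors' deposited table. The authors' deposited table gave 2.41 for Pde4c, a cyclic AMP phosphodiesterase, 2.22 for Tesc and 2.18 for Hpcal1, which code for calcium-binding proteins, and 2.19 for Prkca, a protein kinase C. It gave 1.78 for Camk2a, a calmodulin-dependent kinase, and 1.77 for Dgkh, a diacylglycerol kinase. Also leading were the tetraspanin gene Tspan8 (2.48), the receptor phosphatase gene Ptprk (2.28), Tmem233 (2.20), the potassium channel gene Kcnh7 (2.05) and the biliverdin reductase gene Blvrb (2.02) in the authors' deposited table. Resp18 (2.01), Mical1 (1.86), the transcription factor gene Etv1 (1.81) and Grina (1.81) completed the group there. Several were also higher in other clusters. Kcnh7 was at 2.65 in Cold.sen, above its SST value, in the authors' deposited table. Tspan8 was at 2.305 in Peptidergic.488p and Prkca at 1.82 in Non-peptidergic there. With SST counted, Dgkh was higher in 9 clusters, Camk2a in 7 and Hpcal1 in 6, while Pde4c and Blvrb were higher in SST alone. In the detection shares the leading genes differed far more than in fold: Sst was in 0.9% of other cells and Dgkh in 65.4% in that table.

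The regulatory sequence is shown for some of these leading genes. They are the 3 peptide genes, a receptor chain (Il31ra) and the kinase (Jak1) of the interleukin 31 pathway, and Cysltr2. Il31ra and Jak1 were also found in many cells outside SST, as given below. Each sequence is the 250 bases before the transcription start in RefSeq on build GRCm38.p6. The sources used here do not give the build behind the deposited table. Letters are 5′ to 3′ on the gene's strand, and capitals mark matches to 4 motifs on either strand: TGACGTCA, the cyclic AMP response element, TATAAA, the TATA box, GATAA, the core bound by GATA factors, and TGTGGT, the core bound by RUNX factors.
Nppb, chr4:147985650-147985899, plus strand: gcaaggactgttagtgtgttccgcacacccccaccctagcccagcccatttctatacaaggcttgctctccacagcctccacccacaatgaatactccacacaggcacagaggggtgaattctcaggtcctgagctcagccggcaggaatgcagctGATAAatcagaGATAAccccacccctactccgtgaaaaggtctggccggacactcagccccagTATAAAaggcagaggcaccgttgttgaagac
Sst, chr16:23890845-23891094, minus strand: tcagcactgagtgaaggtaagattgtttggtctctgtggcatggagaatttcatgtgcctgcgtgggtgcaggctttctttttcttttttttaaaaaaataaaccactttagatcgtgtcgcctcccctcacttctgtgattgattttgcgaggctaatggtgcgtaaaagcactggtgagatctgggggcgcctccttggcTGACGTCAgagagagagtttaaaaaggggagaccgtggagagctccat
Nts, chr10:102490419-102490668, minus strand: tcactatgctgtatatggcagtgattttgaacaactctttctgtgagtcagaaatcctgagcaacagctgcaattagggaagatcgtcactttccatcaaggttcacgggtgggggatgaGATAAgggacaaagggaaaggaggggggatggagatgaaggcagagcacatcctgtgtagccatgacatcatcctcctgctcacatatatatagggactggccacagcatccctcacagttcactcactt
Il31ra, chr13:112580663-112580912, minus strand: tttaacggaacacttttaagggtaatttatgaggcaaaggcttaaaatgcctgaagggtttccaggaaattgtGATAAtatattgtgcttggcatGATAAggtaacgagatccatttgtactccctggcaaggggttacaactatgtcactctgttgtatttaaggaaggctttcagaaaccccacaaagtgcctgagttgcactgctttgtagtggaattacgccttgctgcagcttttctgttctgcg
Jak1, chr4:101265224-101265473, minus strand: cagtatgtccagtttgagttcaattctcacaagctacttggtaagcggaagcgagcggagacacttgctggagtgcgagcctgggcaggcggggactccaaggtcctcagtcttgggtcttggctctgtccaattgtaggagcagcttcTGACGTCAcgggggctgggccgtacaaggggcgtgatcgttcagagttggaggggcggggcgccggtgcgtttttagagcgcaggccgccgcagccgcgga
Cysltr2, chr14:73049115-73049364, minus strand: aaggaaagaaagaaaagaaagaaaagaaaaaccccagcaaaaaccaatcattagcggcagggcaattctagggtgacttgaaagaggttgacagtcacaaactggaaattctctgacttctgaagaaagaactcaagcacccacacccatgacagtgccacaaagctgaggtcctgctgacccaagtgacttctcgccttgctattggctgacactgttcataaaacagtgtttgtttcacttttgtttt

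Sst held the cyclic AMP response element at 48 to 41 bases before its start, the site through which this gene served as a textbook case of induction by cyclic AMP. Jak1 held the same 8 letters at 101 to 94 bases before its start. These were 2 of the 23 leading genes with a promoter in the table, against 478 of all 27025 genes (1.77%) and 25 of the 890 matched genes higher in SST (2.81%). Nppb had a TATA box at 31 to 26 bases before its start and GATAA at 94 to 90 and at 83 to 79. Il31ra had GATAA at 177 to 173 and at 155 to 151, and Nts at 130 to 126. GATAA occurred in 7 of the 23 leading genes (30.4%), in 25.5% of all genes and in 17.8% of the matched higher genes. TATAAA occurred in 3 (13.0%), in 14.3% and in 8.65%, and TGTGGT in 3 (13.0%), in 15.9% and in 13.7%. Of the 7147 matched genes of the marker table, 2.92% held the cyclic AMP response element, 17.8% GATAA, 8.63% TATAAA and 12.8% TGTGGT. No match to the 4 motifs was in the window of Cysltr2, and no printed matches overlapped. A match describes these letters and shows no binding.

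The peptide genes of SST split into a small group that was very high and a larger group that was lower. Of 13 neuropeptide genes present, 4 were higher and 7 lower in SST, with a median log2 fold change of -1.35 over the 11 listed, where the median of all 2383 listed genes was -0.26. The 4 higher genes in the authors' deposited table were Nppb (4.11), Sst (3.43), Nts, the gene of neurotensin (3.16, in 99.1% of SST cells and 1.2% of others), and Bdnf, the gene of a neurotrophin (0.85, 95.7% against 36.4%). Sst and Nts were not listed for any other cluster. Of all cells with Sst detected, 87.1% lay in SST (86.5 to 87.8% over the rounding of the shares), and of those with Nts 83.7% (83.1 to 84.3%).

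Nppb, unlike Sst and Nts, was also listed for other clusters. SST held 78.5% of all cells with Nppb (77.98 to 78.99%), and 12.1% lay in CGRP-z and Peptidergic.488p, the other clusters that list the gene. By the authors' deposited table, some 22.4% of CGRP-z cells and 20.3% of Peptidergic.488p cells had Nppb, against 99.6% in SST. Their mean level was called lower (-0.74 and -0.56 in the authors' deposited table), and the cells they were compared with include SST. The meaning of 488p in the cluster name is not stated. Bdnf, in contrast, was listed as higher in 5 clusters and was shared with Non-peptidergic, CGRP-a, CGRP-e and CGRP-n, in each of which the authors' deposited table found it in 93.0 to 98.5% of cells.

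Other peptide genes were lower in SST. The authors' deposited table gave -4.43 for Calca and -1.67 for Calcb, the genes of the peptide CGRP, -3.55 for Tac1, the gene of substance P, -1.96 for Gal, the gene of galanin, and -1.84 for Adcyap1, the gene of PACAP. Cartpt was at -1.35 and Nmb, the gene of neuromedin B, at -0.28 there. Nmb (0.61) and Calcb (0.89) were higher in Non-peptidergic in the authors' deposited table. These genes were not alike in detection. In the authors' deposited table Gal was in 1.3%, Adcyap1 in 2.6% and Cartpt in 3.5% of SST cells, while Calca was in 79.4%, Tac1 in 61.8% and Nmb in 95.2%. The 7 Unknown clusters, in each of which markers of glia, Schwann cells, vessels, fibroblasts or macrophages were higher, had Calca in 34.2 to 61.0% and Tac1 in 31.5 to 47.2% of their cells in that table. The shares of Calca and Tac1 in SST lay above these ranges, but the depths behind them are unknown and free RNA was not measured. Log2 fold changes did not rank the same way. Calca was at -4.43 in SST and at -3.996 to -2.935 in the Unknown clusters in that table. Tac1 was at -3.55 in SST and at -3.59 to -2.65 in the Unknown clusters, each against its own set of other cells. The plot of detection by cluster sets the shares of cells side by side.

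**Figure D2:**
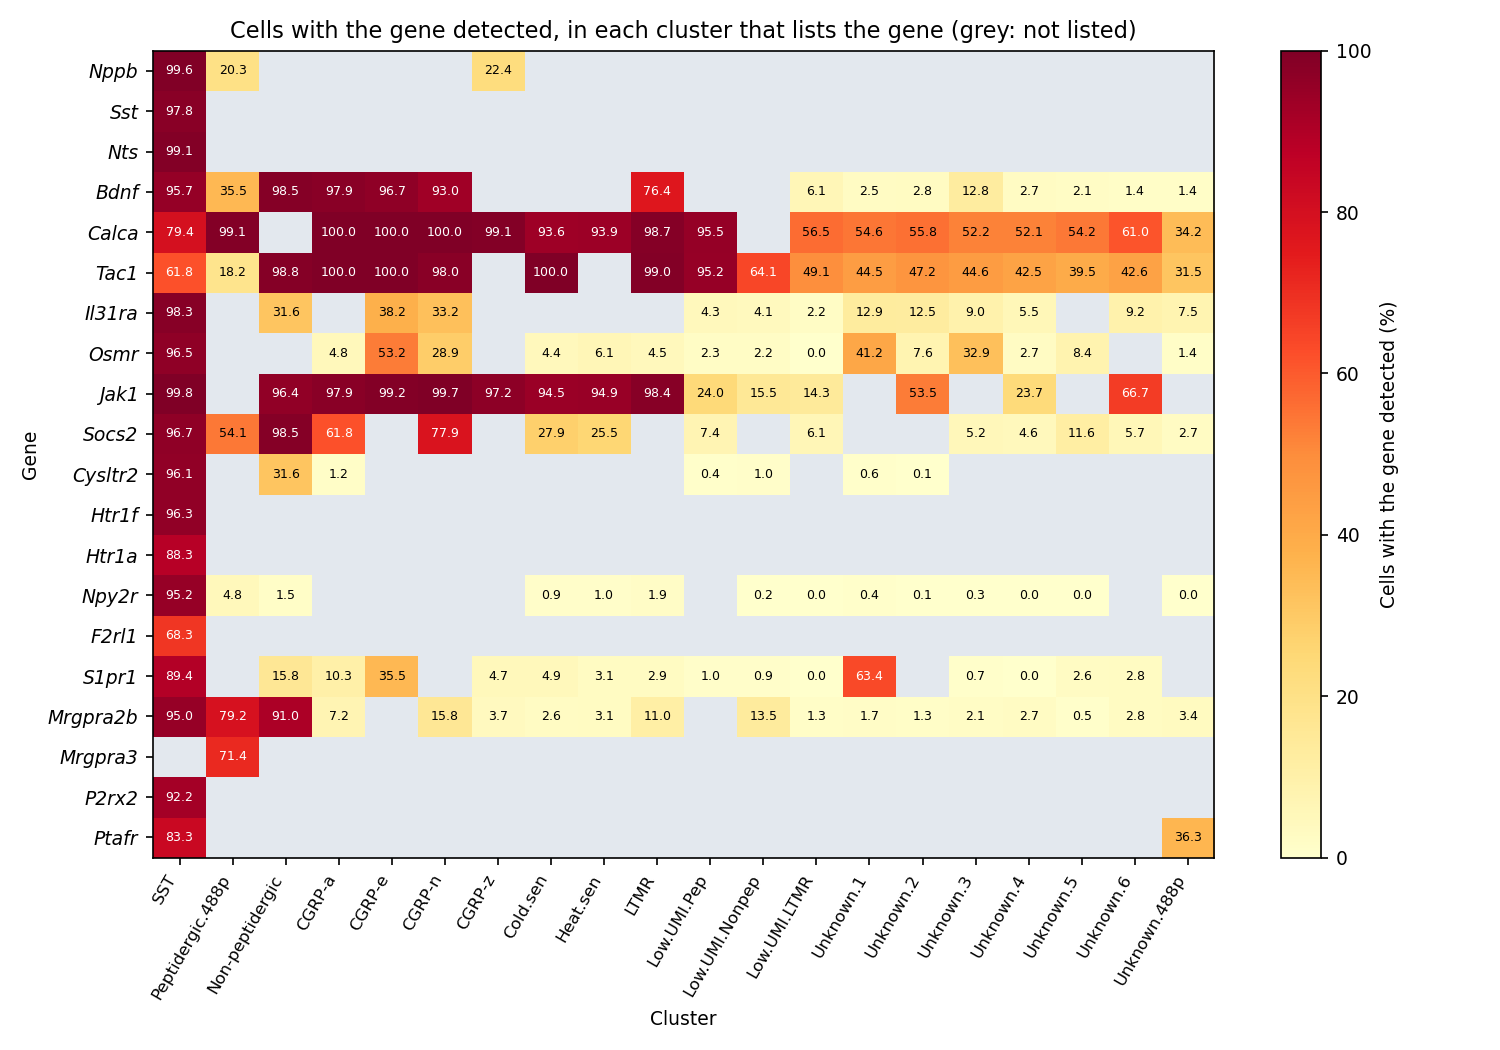
Share of cells (%, colour and figures) with each of 20 genes detected, in each of the 20 clusters that lists the gene. Grey means that the gene is not listed for the cluster, which is not a value of 0. Sst, Nts, Htr1f, Htr1a, F2rl1 and P2rx2 have a value in SST alone, while Bdnf, Jak1 and Calca have high values in several neuron clusters.

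Genes for making and packing peptides followed no single direction. Of 18 such genes found in any cluster, 2 were higher and 3 lower, where 12.5% and 10.7% of all genes were. Another 12 were not listed for SST, among them the processing enzyme genes Pcsk1, Pcsk2, Cpe and Pam. Scg2, a secretogranin gene of dense-core vesicles, was at 1.14 in the authors' deposited table, in 99.6% of SST cells and 49.5% of others, and Cadps, which primes these vesicles, at 0.40. Pcsk5 (-0.59), Sv2a (-0.47) and Chgb (-0.35) were lower there. Chgb was nevertheless in 80.0% of SST cells and 37.2% of others in that table. On the side of the peptide's own signal, Prkg1, the cyclic GMP-dependent kinase gene, was the 1 member of 12 natriuretic peptide and cyclic GMP genes that was listed (0.67 in the authors' deposited table). The receptor genes Npr1, Npr2 and Npr3 were in the table for other clusters but not for SST.

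Receptors for interleukin 31 and oncostatin M and their kinase were higher together, while receptors of other itch cytokines were not listed as higher. Of 15 genes of the pathway found in any cluster, 7 were higher and none lower in SST, and 8 were not listed. Il31ra was at 3.78 in the authors' deposited table, in 98.3% of SST cells and 15.6% of others, and Osmr at 2.08, in 96.5% and 14.5%. Jak1 was at 3.49 and Socs2, a feedback inhibitor of cytokine signalling, at 1.76 (96.7% of SST cells, 35.9% of others) there. The partner receptor genes Lifr (0.41) and Il6st (0.26) and the transcription factor gene Stat3 (0.42) had smaller values in the authors' deposited table and were in 55.3 to 64.8% of other cells. Of 9 other cytokine receptor genes found in any cluster none was higher, 1 was lower, and 8, among them Il4ra, Il13ra1 and Crlf2, were not listed for SST.

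Each of the 7 genes was higher in both level and detection in SST, but the cells that had them were not confined to it. SST held 28.2% of all cells with Il31ra, 29.3% of those with Osmr and 9.38% of those with Jak1. Jak1 was in 94.5 to 99.7% of the cells of the 8 other named neuron clusters that list it in the authors' deposited table, near its 99.8% in SST, yet its log2 fold change in those 8 was between -1.45 and -0.33. Il31ra was in 38.2% of CGRP-e, 33.2% of CGRP-n and 31.6% of Non-peptidergic cells there. Osmr was in 53.2% of CGRP-e cells and was also higher in Unknown.1 and Unknown.3 (0.60 in each in the authors' deposited table), in which all 8 endothelial markers and 7 mural markers, respectively, were higher. Jak1 was called higher in SST and in no other cluster that lists it. Lifr (0.71) and Il6st (0.56) had larger values in Non-peptidergic than in SST, and Stat3 (0.53) in CGRP-a, in the authors' deposited table. Socs2 was in 98.5% of Non-peptidergic cells there, at a smaller value (0.34) than in SST.

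Of 18 G protein-coupled receptor genes of itch found in any cluster, 8 were higher, 2 were lower and 1 did not pass, with a median of 0.41 over these 11. The serotonin receptor gene Htr1f was at 3.34 in the authors' deposited table, in 96.3% of SST cells and 1.6% of others. Htr1a (0.59, 88.3% against 5.3%) and Htr2a (0.29, 79.8% against 10.8%), also serotonin receptor genes, and F2rl1, the gene of protease receptor PAR2 (0.31, 68.3% against 0.5%), were frequent in SST at small fold changes in that table. The sources used here do not give the offset in the fold change. Npy2r, a neuropeptide Y receptor gene, was at 2.01 (95.2% against 6.3%) and the sphingosine phosphate receptor gene S1pr1 at 0.41 (89.4% against 14.0%) in the authors' deposited table. Of 11 lipid and kinin receptor genes 1 was higher and 2 lower, where 12.5% and 10.7% of all genes were. The higher one was Ptafr, the receptor gene for platelet-activating factor (0.40, 83.3% against 1.2% in the authors' deposited table). Ptger3 (-0.57, 4.8% against 23.4%) and Ptgdr (-0.29, 1.1% against 18.7%) were lower there.

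Some of these receptor transcripts were concentrated in SST. Of the cells with F2rl1 89.5% lay in SST (88.5 to 90.4%), of those with Ptafr 81.2%, with Htr1f 78.9%, with Cysltr2 59.9%, with Htr1a 50.9% and with Npy2r 48.5%. For S1pr1 the share was 28.4%, and the authors' deposited table had it in 63.4% of Unknown.1 cells as well. Ptafr was also higher in Unknown.488p (1.28, in 36.3% of its cells, in the authors' deposited table). The bars of positive cells by cluster show the order.

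**Figure D3:**
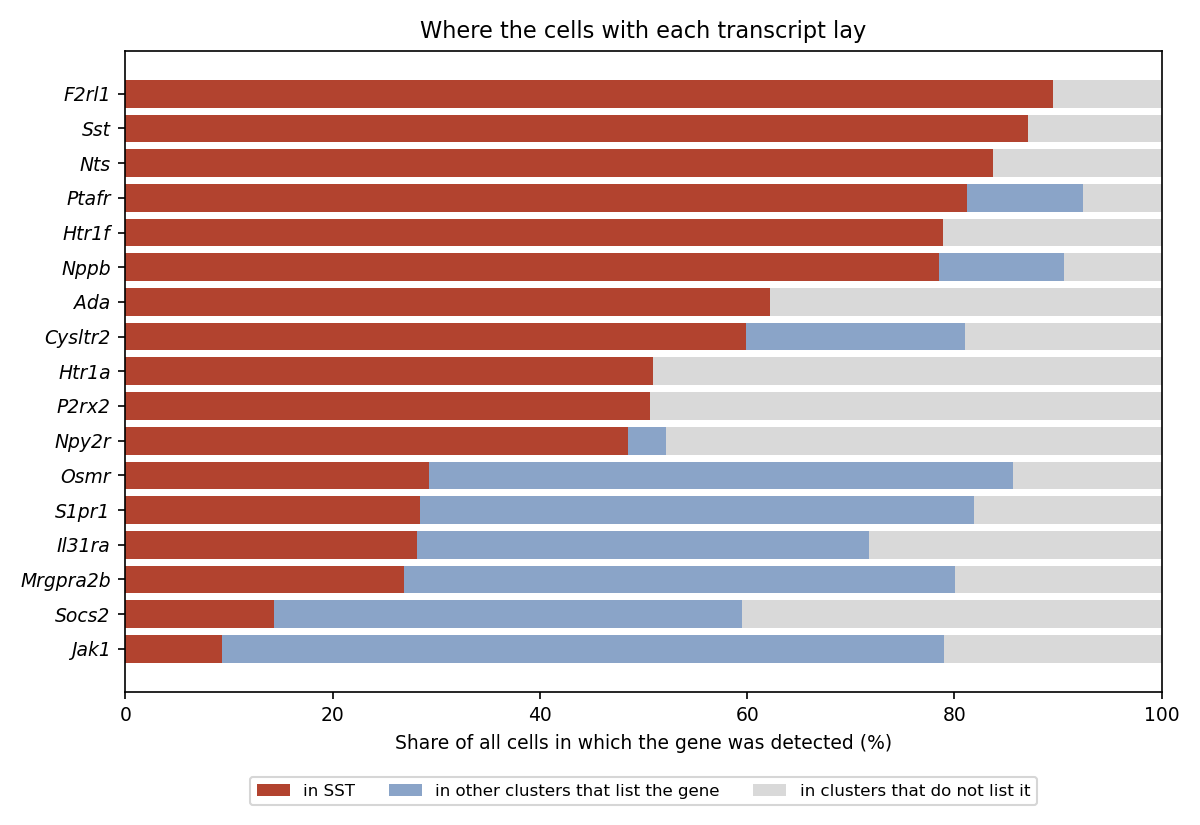
Share of all cells with a transcript (%) that lay in SST (red), in other clusters that list the gene (blue) and in clusters that do not list it (grey), for 17 genes. The red part falls from 89.5% for F2rl1 to 9.38% for Jak1.

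The receptors of SST can be set beside those of Peptidergic.488p and Non-peptidergic. Mrgpra3, the chloroquine receptor gene, was in 71.4% of Peptidergic.488p cells in the authors' deposited table and was not listed for SST. Mrgpra2b, a related receptor gene, was found in both, in 95.0% of SST cells (1.40) and 79.2% of Peptidergic.488p cells (2.40), and in 91.0% of Non-peptidergic cells (0.32) in the authors' deposited table. Mrgprd, which marks non-peptidergic neurons, was at -0.56 in SST and did not pass, in 5.0% of cells in that table. Lpar3 (-0.62, in 1.3% of SST cells and 14.6% of others), a lysophosphatidic acid receptor gene, was lower in SST in the authors' deposited table. S1pr3 was lower in level too (-0.48), but was in 61.0% of SST cells and 28.9% of others there. Tmem233 was frequent in the same 3 clusters, in 100%, 91.3% and 99.8% of the cells of SST, Peptidergic.488p and Non-peptidergic, while the 7 other named neuron clusters had it in 18.3 to 68.4% in the authors' deposited table. It was also higher in Low.UMI.Nonpep (1.89, in 76.2% of its cells, in the authors' deposited table). These comparisons share most of their cells, and the difference between clusters was not tested.

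Genes that carry receptor signals inside the cell were higher more often than lower. Of 33 phospholipase C and G protein genes found in any cluster, 14 were higher and 3 lower, with a median of 0.66 over the 20 listed. Behind Prkca and Dgkh the authors' deposited table gave 1.57 for Gnal and 1.37 for Gna14, which code for G protein α subunits, and 1.18 for Prkcd. Gna14 was in 96.5% of SST cells and 19.9% of others there. Plcb1 (-1.77), Plce1 (-0.62) and Prkcb (-0.39) were lower in the authors' deposited table. Of 13 RGS genes, which end G protein signals, Rgs3 was higher (1.06) and Rgs7 (-1.09) and Rgs17 (-0.36) lower there. In a list of 23 cyclic AMP enzyme genes, which does not include the leading gene Pde4c, 5 were higher and 7 lower. Its higher members included Pde1c (0.83), Adcy2 (0.73) and Pde8b (0.62), and its lower members Pde4d (-1.53), Prkar2b (-1.29) and Pde7b (-0.78), in the authors' deposited table.

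**Figure D4:**
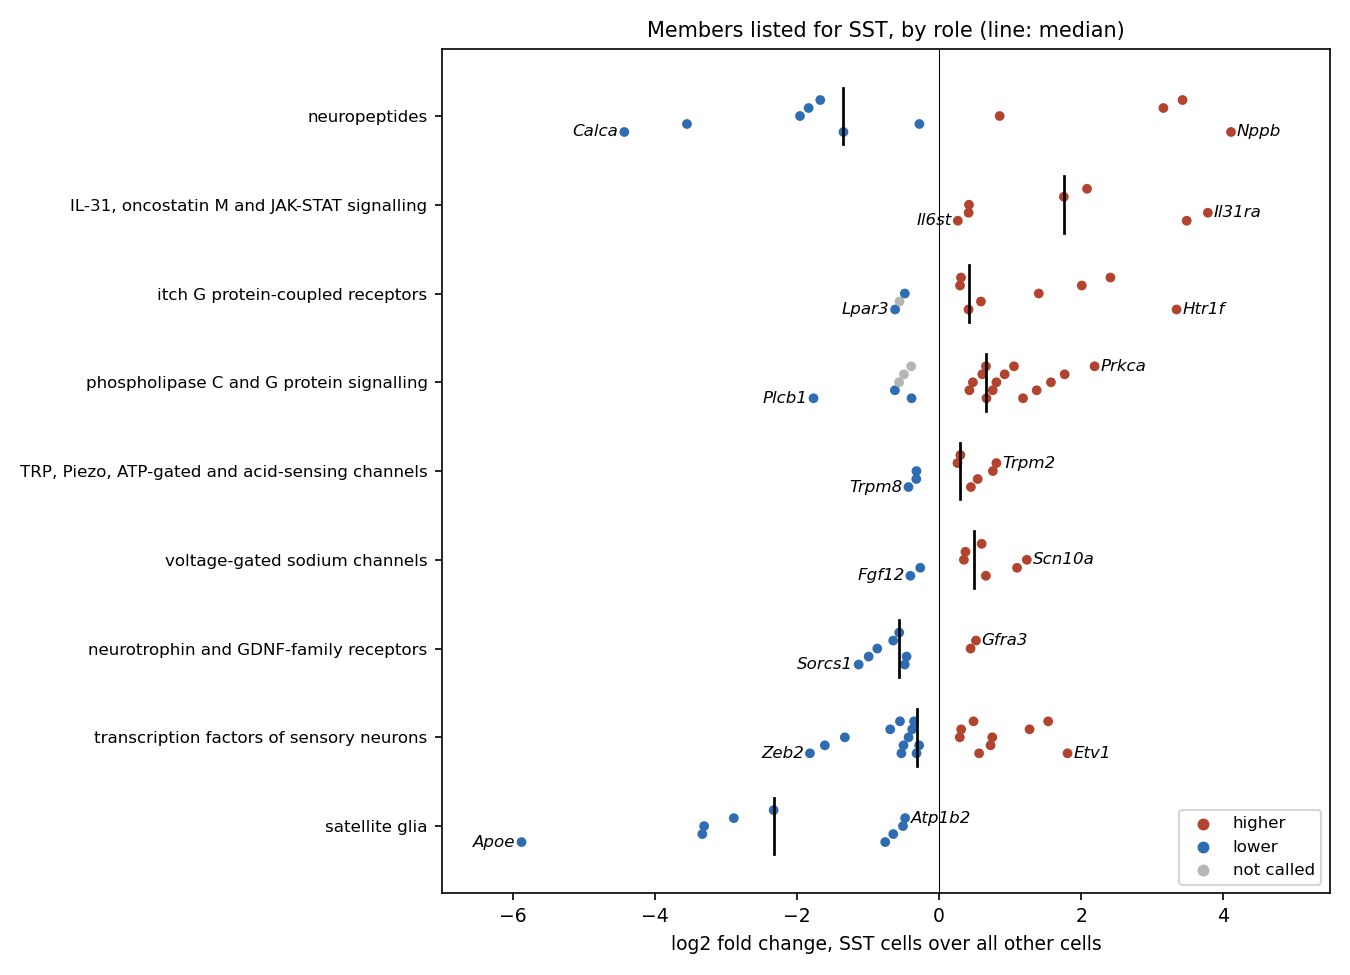
Log2 fold change of SST cells over all other cells (horizontal axis) for the members listed for SST of 9 gene lists. Each point is a gene, coloured by its call, black lines are medians, and the highest and lowest gene of each list is named. The interleukin 31 list lies wholly above 0 and the satellite glia list wholly below it.

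Among sensory channels, 6 of 24 TRP, Piezo, ATP-gated and acid-sensing channel genes in the table were higher and 3 lower. The ATP-gated channel gene P2rx2 was at 0.76 in the authors' deposited table, in 92.2% of SST cells and 5.6% of others, and SST held 50.6% of all cells with it. Trpm2 (0.81), Ano3 (0.54), Tmem63c (0.45) and Trpv2 (0.30) were higher, as was Trpv1, the heat and capsaicin channel gene (0.26, 95.2% of SST cells and 33.4% of others), in the authors' deposited table. Trpa1 and P2rx3 were not listed for SST. Trpm8, the cold channel gene (-0.43, in 0.9% of SST cells), Piezo2, the touch channel gene (-0.32), and Trpm7 (-0.32) were lower there. Piezo2 was nevertheless in 89.8% of SST cells and 37.5% of others, and Trpm7 in 81.3% and 46.4%, in the authors' deposited table.

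Of 16 sodium channel genes 6 were higher and 2 lower. Scn10a (1.23) and Scn11a (0.60), which code for the tetrodotoxin-resistant channels of pain and itch fibres, Fgf13 (0.66) and Scn9a (0.37) were among the higher in the authors' deposited table, and Fgf12 (-0.41) and Scn3a (-0.27, in 0.2% of SST cells) were lower. Fgf12 was nevertheless in 94.4% of SST cells and 45.2% of others in that table. Potassium channel genes divided nearly evenly, 10 of 48 higher and 11 lower. Behind Kcnh7 stood Kcnb2 (1.45), Dpp6 (0.89), Kcnn1 (0.53) and Kcnk12 (0.44), and the lower genes included Kcnab1 (-0.98) and Kcnma1 (-0.97), in the authors' deposited table. Calcium channel genes were 4 higher and 4 lower of 17, from Cacna1c (1.26) and Cacna2d2 (0.80) to Cacnb2 (-0.63) and Cacnb4 (-0.97, in 4.1% of SST cells and 39.0% of others) there.

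Receptors that restrain or feed the neuron were lower more often than higher. Of 15 inhibitory receptor genes 2 were higher and 6 lower, where 12.5% and 10.7% of all genes were. The higher ones were Npy2r and the µ opioid receptor gene Oprm1 (0.98, 95.7% against 35.7% in the authors' deposited table). Oprm1 was higher in 7 clusters with SST counted. Its values were larger in CGRP-a (1.21), Cold.sen (1.06) and CGRP-e (1.03) there, and smaller in the rest. The lower genes included Grm7 (-1.07) and Npy1r (-0.83) in the authors' deposited table. Grm7 was nevertheless in 88.3% of SST cells and 39.0% of others in that table. Sstr2, a somatostatin receptor gene, was in 0.4% of SST cells and 14.3% of others (-0.27 in the authors' deposited table). Sstr2 is named outside the naming rule. Of 13 neurotrophin and GDNF-family receptor genes Gfra3 (0.52) and Gfra1 (0.44) were higher and 7 lower, led by Sorcs1 (-1.13), Ntrk2 (-0.99) and Gfra2 (-0.87) in the authors' deposited table. Of 16 glutamate genes Grik4 (1.34) and Gria4 (0.44) were higher and Grik1 (-1.64), Gria1 (-0.60) and Gria3 (-0.32) lower in the authors' deposited table.

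Transcription factor genes of sensory neurons were 9 higher and 12 lower of 43. Etv1 (96.5% of SST cells, 16.7% of others), Klf5 (1.54, 97.4% against 22.1%), Isl2 (1.27), Klf7 (0.75) and Ebf1 (0.72) were the highest in the authors' deposited table. Etv1 was also at 1.66 in Peptidergic.488p, in 68.0% of its cells, in the authors' deposited table. The lowest were Zeb2 (-1.82, in 3.0% of SST cells and 44.6% of others), Nfib (-1.61) and Rora (-1.33) there. Runx1, Pou4f1 and Tlx3, general factors of these lineages, were in the table but not listed for SST.

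Cell contact genes were lower more often than higher. None of 21 cadherin and protocadherin genes was higher and 8 were lower, led by Pcdh9 (-2.16), Cdh11 (-1.13) and Cdh19 (-0.76) in the authors' deposited table. Of 47 synaptic adhesion genes 8 were higher and 15 lower, from Cntnap2 (1.18), Il1rapl1 (0.76), Tenm1 (0.66), Dscam (0.64) and Nrxn2 (0.63) to Ptprt (-1.34), Sdk1 (-1.11) and Lrp1b (-0.98) in the authors' deposited table. Axon guidance genes were 4 higher and 6 lower of 34, where 12.5% and 10.7% of all genes were. The semaphorin receptor genes Plxnc1 and Nrp1 were at 0.93 and -0.96 there. Vesicle release genes went the other way, 12 of 35 higher and 3 lower. Unc13c, a vesicle priming gene (1.70, 92.2% of SST cells and 19.0% of others), Rims2 (0.94), Syt9 (0.83), Syn3 (0.69) and Rab3d (0.48) led them, and Synpr (-1.43), Syt2 (-0.31) and Rab3b (-0.26) were lower, in the authors' deposited table.

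**Figure D5:**
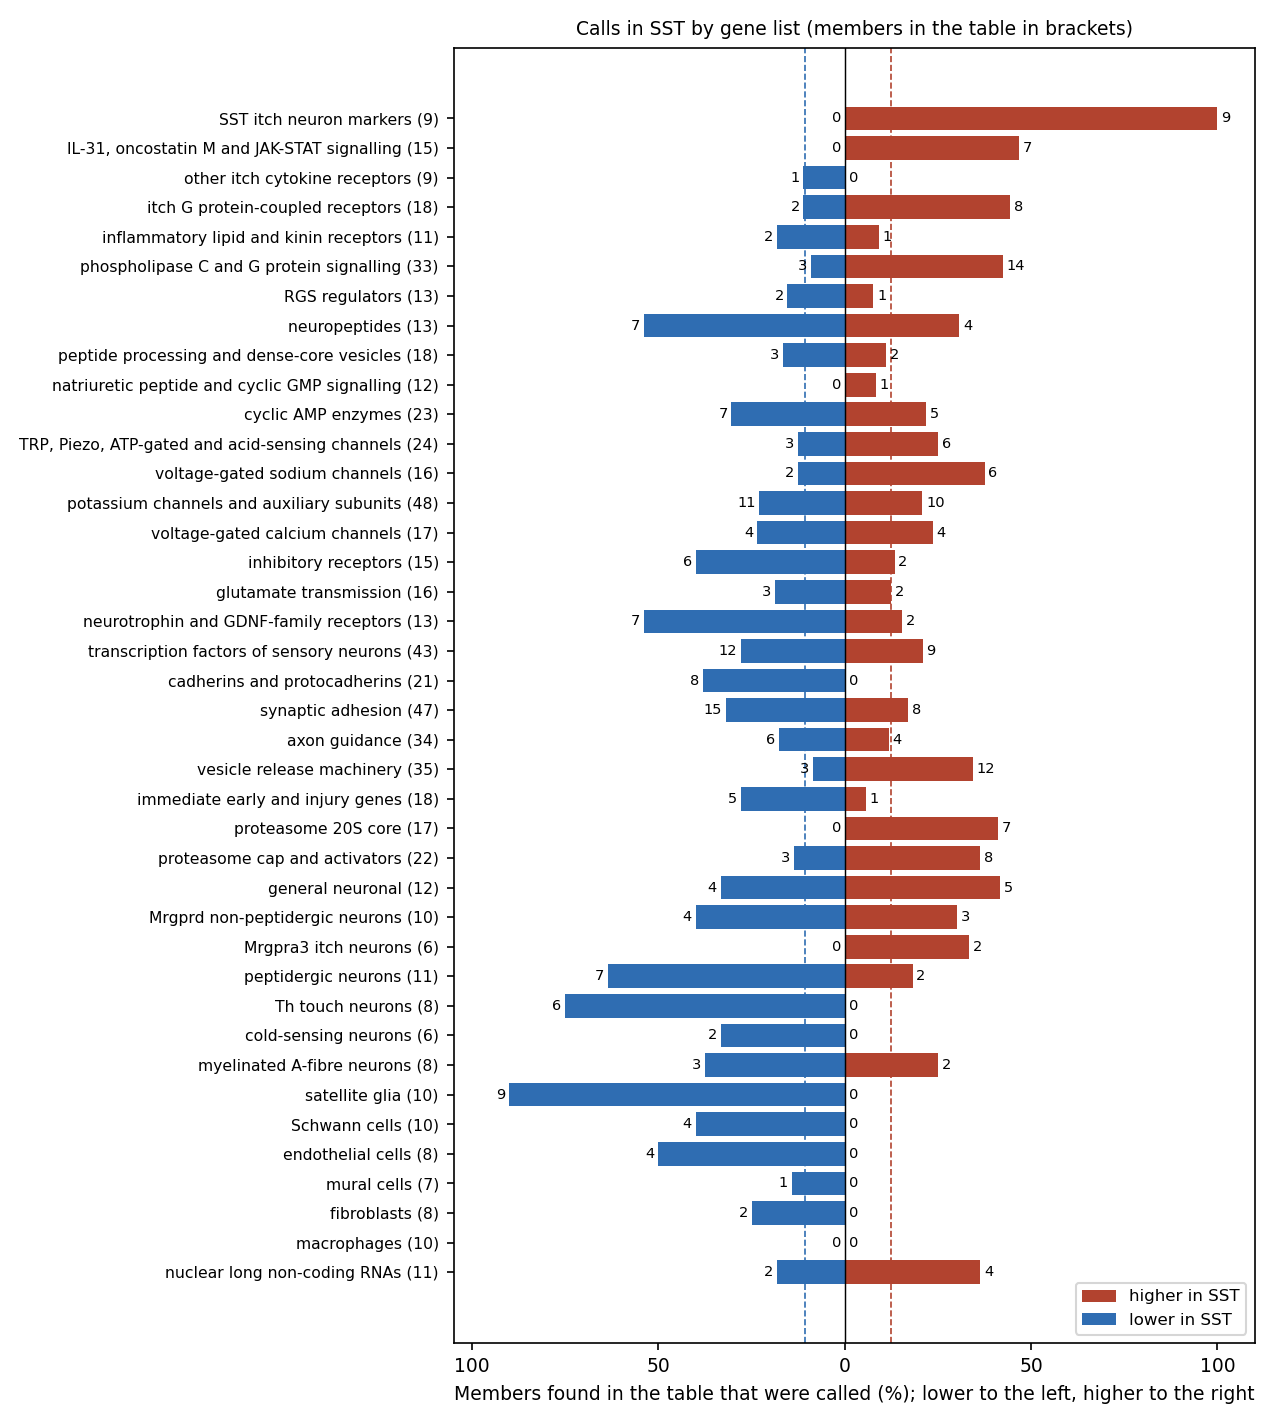
Members of each of 40 gene lists that were higher (right, red) or lower (left, blue) in SST, in % of the members found in the table (number in brackets), with the counts at the bars. Dashed lines mark the shares of all 9229 genes that were higher (12.5%) and lower (10.7%). Bars describe the cluster against all other cells and are no test.

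The proteasome was the target by which the cells had been sorted. Of 17 genes of the 20S core particle 7 were higher in SST, none lower, and 1 did not pass, with log2 fold changes of 0.26 to 0.40 among the higher ones in the authors' deposited table. The largest were Psmb6 (0.40), Psmb3 (0.37), Psma7 (0.34), Psma2 (0.34) and Psma3 (0.29) there. Psmb5, which codes for the β5 subunit that the sorting antibody recognises, was not listed for SST. It is named outside the naming rule, and was higher in Non-peptidergic (0.30), Peptidergic.488p (0.39) and Low.UMI.Pep (0.69) in the authors' deposited table. Of 22 genes of the proteasome cap, its activators and its membrane partners 8 were higher, led by Psmd3 (0.45), Psmc5 (0.42), Psmc2 (0.42), Psmd1 (0.38) and Psmd4 (0.35), and 3 lower in the authors' deposited table. The lower ones were Psme1 (-0.30), a subunit of a proteasome activator, and Gpm6a (-0.32) and Gpm6b (-1.59), which code for membrane glycoproteins linked to the neuronal membrane proteasome, and were in 3.3% and 1.1% of SST cells in that table. RNA does not show how much of the protein was at the surface.

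Markers of other cell types were checked beside these groups. General neuronal genes were 5 higher and 4 lower of 12, and the authors' deposited table gave 0.73 for Tubb3, a tubulin gene. Map2, a neuronal microtubule gene, was in 0.7% of SST cells and 36.9% of others (-0.87), and Thy1 in 1.5% and 10.5% (-0.40), in the authors' deposited table. Of 10 satellite glia markers 9 were lower and none higher, from Apoe (-5.88) to Atp1b2 (-0.48), and Atp1b2 and Gja1 were each in 0.0% of SST cells in the authors' deposited table. Dbi was in 84.6% and Glul in 92.8% of SST cells in that table. Dbi, Glul, Atp1b2 and Gja1 were singled out after their values were seen. No marker of Schwann, endothelial or mural cells or of fibroblasts was higher, and 4 of 10, 4 of 8, 1 of 7 and 2 of 8 were lower. The fibroblast marker Apod was in 47.9% of SST cells against 19.4% of the rest, at -3.35, in the authors' deposited table. None of 10 macrophage markers was listed for SST.

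Markers of other neuron classes were checked too. Touch neuron genes were 6 lower and none higher of 8, among them Rarres1 (-1.01), Zfp521 (-0.77) and Th (-0.56) in the authors' deposited table. With detection in the same direction 3 were lower, since Rarres1 (62.9% against 25.1%), Piezo2 and Tafa4 (31.9% against 14.2%) were in more SST cells in that table. Cold neuron genes were 2 lower and none higher of 6. Of 6 genes of Mrgpra3 itch neurons, Mrgpra2b and Gfra1 were higher and none lower. Peptidergic genes were 2 higher (Gfra3 and Trpv1) and 7 lower of 11, including Fxyd7 (-2.12). Mrgprd neuron genes were 3 higher (Gna14, Plxnc1 and Scn11a) and 4 lower of 10, and A-fibre genes 2 higher (Etv1 and Necab2) and 3 lower of 8. The 10 leading lower genes of SST were Apoe, Sparc (-3.33), Vim (-3.0), Pcp4 (-2.33), S100a11 (-2.15), Fxyd7, Sparcl1 (-2.04), Ifitm3 (-2.02), Tagln2 (-1.98) and Gal in the authors' deposited table. Of these, Apoe and Sparc are in the satellite glia list and Fxyd7 and Gal in the peptidergic list. The others are in none of the cell type lists.

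Of 18 immediate early and injury genes the injury factor gene Atf3 was higher (0.42) and 5 were lower, among them Egr1, Ier2 (-0.85) and Fosb (-0.84) in the authors' deposited table. With detection required in the same direction, 1 was lower: Egr1, Ier2, Fosb and Junb were each in a larger share of SST cells than of other cells. Among 11 long non-coding RNAs 4 were higher, Snhg11 (0.90), Meg3 (0.65), Rian (0.60) and Snhg14 (0.46), and Malat1 (-2.49) and Neat1 (-1.0) were lower in the authors' deposited table. Malat1 was in 94.1% of SST cells and 79.5% of others there.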

How the data were processed

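Single-cell RNA of sorted dorsal root ganglion cells had been measured in 4 NMP-positive and 4 NMP-negative samples, lanes of 1 library per group per the labels. The values come from 1 table of the authors' comparisons of 20 clusters with all other cells. Per the file headers, the deposited columns hold a p-value, an adjusted p-value, a mean log2 fold change, and the fraction of the cluster's cells and of other cells in which a gene was found (percentages in the text). Seurat is named in the submitters' processing notes. The sources used here do not give the aligner, build, cell filters, normalization, doublet treatment or offset of the fold change. No listed p-value is above 0.01, no log2 fold change is below 0.25 in size, and the larger fraction of each pair is at least 10.0%. The deposited adjusted p-value was 32285 times the p-value, within 0.1%, in each of the 50107 pairs small enough to check.

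A gene was called at an adjusted p under 0.05. Cluster weights were solved by least squares with numpy 2.4.6 over 6742 genes with a detection difference of at least 5 percentage points (residual 0.0274 percentage points), since a gene's overall share is the same from any cluster, and were tested on simulated data. Positive cells were weight times share, with bounds from the rounding of 0.1 percentage points. The 40 gene lists hold 733 genes, 638 of them in the table and 47 in more than 1 list. Genes named are the 25 leading higher and 10 leading lower genes by log2 fold change (in at least 25% of SST cells, or of other cells for the lower, differing by at least 20 percentage points, predicted genes left out), up to 5 higher and 3 lower members of each list, and the listed members of the marker, interleukin 31, itch receptor, neuropeptide and cyclic GMP lists. Some genes that this rule selects are not reported here. Members and lists were chosen with earlier results of these data known, and motifs after the promoters were read. Promoters come from RefSeq (GRCm38.p6).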

Additional observations from a re-analysis of the deposited data

How the results depend on the processing

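At an adjusted p under 0.001 the number of higher genes was 1154 again and that of lower genes 896. With a log2 fold change of at least 0.5 in size the counts were 476 higher and 449 lower, and with at least 1 they were 121 and 156. Requiring detection in the same direction left the higher count at 1154 and took the lower count to 540. The share of all cells in SST was 5.86% with a minimum difference of 2, 5 or 10 percentage points, and the shares of positive cells of the 25 leading genes stayed within their rounding bounds at 2 and 10. Of the 80 counts of list members, 2 moved by more than 1.5 times at the stricter adjusted p, 34 at a fold change of 0.5, 55 at 1 and 10 with the detection rule, each a count of lower members. Ranking by difference in detection kept 11 of the 25 leading genes. No paired analysis was possible because the table's columns carry no sample, and no sample could be left out for the same reason. Without cell numbers or depth, no interval could be given for a share of cells.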

Other observations

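Some gene groups outside the lists were looked at after their values were seen, and are given as values. Of 14 genes of adenosine enzymes and transport, 5 were higher and 4 lower, where 12.5% and 10.7% of all genes were. Adk was the largest of the higher ones in the authors' deposited table. Ada, the adenosine deaminase gene, was at 1.36, in 95.2% of SST cells and 3.6% of others, and was listed for no other cluster. SST held 62.2% of all cells with Ada. Nt5e, which codes for the surface enzyme that makes adenosine from AMP, was at 1.33 (93.5% against 16.7%), and the nucleoside transporter gene Slc29a1 at 0.79 (94.8% against 31.2%) in the authors' deposited table. The adenylate kinase genes Ak1 (-0.31, in 75.5% of SST cells and 37.1% of others) and Ak5 (-0.47) were lower there. The adenosine receptor gene Adora1 (-0.29) and Entpd1 (-0.60, in 0.7% of SST cells), which degrades ATP outside the cell, were lower there.

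Calmodulin-dependent kinase genes differed by member. The authors' deposited table gave 1.42 for Camk4 (93.1% of SST cells, 23.1% of others), 1.04 for Camk2g and 0.66 for the inhibitor gene Camk2n1 beside the leading Camk2a, but -1.07 for Camk2d. Camk2d was nevertheless in 90.9% of SST cells and 60.5% of others in that table. Of 13 genes encoded by mitochondrial DNA 8 were higher and none lower, from mt-Atp6 (0.29) to mt-Co3 (0.56) in the authors' deposited table. Of 48 heat shock and DnaJ genes 5 were higher and 9 lower, where 12.5% and 10.7% of all genes were. Values ran from Hspb8 (0.95) to Hspa5 (-1.25) there. Each of the 9 was in a larger share of SST cells than of other cells, Hspa5 in 95.2% against 74.2%. By difference in detection alone, Capn9 (94.8% of SST cells, 5.3% of others), Cmtm7 (93.5%, 4.2%) and Cmtm8 (95.9%, 9.3%) joined the peptide and receptor genes in the authors' deposited table.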
